A study of Homo sapiens with 6 samples.

Results

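The endoplasmic reticulum (ER) chaperone and unfolded protein response (UPR) genes were followed as a fixed set of 32 genes, named by symbol, out of 56638 gene names in the count table. They were described in HL60, a human line grown from an acute leukaemia whose cells resemble promyelocytes, by sequencing of polyadenylated RNA. The first group held 3 libraries of cells with CRISPR/Cas9-mediated deletion of SKI, a co-repressor gene of the TGF-beta and other pathways, from the line numbered 3. The second held 3 libraries of CRISPR/Cas9 control cells from the line numbered 1. All cells were grown in RPMI with 10% serum, and each group was 1 line. The titles number the replicates without saying whether each was its own culture. The p-values therefore reflect the spread of these libraries alone, possibly only technical, and a difference between SKI genotypes cannot be told apart from a difference between the 2 lines.

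Secretory and membrane proteins enter the ER through the Sec61 channel and fold there with the help of chaperones, disulfide isomerases and the lectins calnexin and calreticulin, while proteins that fail to fold are sent to the proteasome by ER-associated degradation (ERAD). The UPR is the signalling system that matches this capacity to the load. Its sensors IRE1, encoded by ERN1, PERK, encoded by EIF2AK3, and ATF6 lead to active XBP1, ATF4 and ATF6 factors, which raise the transcription of chaperone and ERAD genes. Promyelocytic cells make large amounts of granule proteins such as myeloperoxidase, whose precursor is known to bind calreticulin and calnexin in the ER.

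Library totals ran from 47930276 to 58553247 counts, and 16340 genes had enough counts to be tested, all 32 members among them. SKI mRNA was at 59.6, 40.7 and 42.0 CPM (counts scaled to library size) in the knockout libraries, against 63.9, 83.5 and 88.5 CPM in the control libraries (log2 fold change -0.73, SE 0.19, edgeR adjusted p = 0.0282). The difference kept its direction but missed a threshold of 0.05 without knockout replicate 2 (adjusted p = 0.0769), control replicate 2 (0.109) or control replicate 3 (0.136). Of 8 promyelocytic markers 6 were tested, while ELANE and KIT had too few counts. Of those 6, 4 fell in edgeR (MPO, AZU1, CEBPE and CD33), where 5.63% of all genes were lower, and 3 fell in DESeq2. AZU1 and CEBPE kept their calls in every alternative fit. MPO lost its call in DESeq2, and MPO and CD33 each in 4 of the 6 fits with 1 library left out. With each gene centred on its chromosome's median 4 were lower too, but CD33, at -0.09, was not among them. The summed level of the list, most of it MPO, was 3248 to 9323 CPM in the knockout and 12868 to 15150.0 CPM in the control. The part of these markers in the results below was not tested. Of 6 T and NK cell markers, summing to 136 to 158 CPM in the knockout and 103 to 156 CPM in the control, 4 were tested and CD2 fell. CD2 was scarce, with means of 0.248 CPM in the knockout and 0.679 CPM in the control. Its call was lost in 4 of the 6 fits with 1 library left out. Of 5 B and plasma cell markers 2 were tested and CD79A rose, with sums of 16.1 to 22.0 CPM in the knockout and 12.2 to 21.5 CPM in the control. CD79A had means of 3.56 CPM in the knockout and 1.09 CPM in the control, and lost its call in 2 of those 6 fits. Of 7 erythroid and 7 fibroblast or epithelial markers 1 each was tested and did not pass in edgeR, although DESeq2 called 1 of the fibroblast or epithelial markers higher, with sums of at most 11.0 CPM in the knockout and 12.0 CPM in the control. In knockout replicate 3 long transcripts were low relative to the mean of the 6 libraries, with a median log2 deviation of -0.23 among well-expressed genes of at least 7339 bases and 0.20 among those of up to 3117 bases.

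Most members had modestly positive log2 fold changes in the knockout, and CALR was the 1 that fell. Of the 32 members 8 rose (ERN1, SIL1, SSR1, HERPUD1, XBP1, MANF, ATF6 and SDF2L1), CALR fell and 23 did not pass an edgeR quasi-likelihood adjusted p of 0.05. In the same test 11.8% of all genes tested passed, 6.19% higher and 5.63% lower in the knockout, and the 25% of members that rose was above that background. The members were chosen with earlier results of these data known, so the shares in this paragraph describe them and are no test of the set. The log2 fold change was above 0 for 30 of 32 members, against 49.2% of all genes, and its median was 0.52 over the members and -0.01 over all genes. The knockout values lay wholly above the control values for 18 members, a pattern seen in 16.0% of all genes, and wholly below them for CALR and ERO1L (16.1% of all genes). A further 10 members had an adjusted p between 0.05 and 0.1, among them HSPA5 and HSP90B1. The authors' deposited table gives 16 members as higher and 1 as lower at an adjusted p under 0.05, where 6.67% of its genes are higher.

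**Figure D1:**
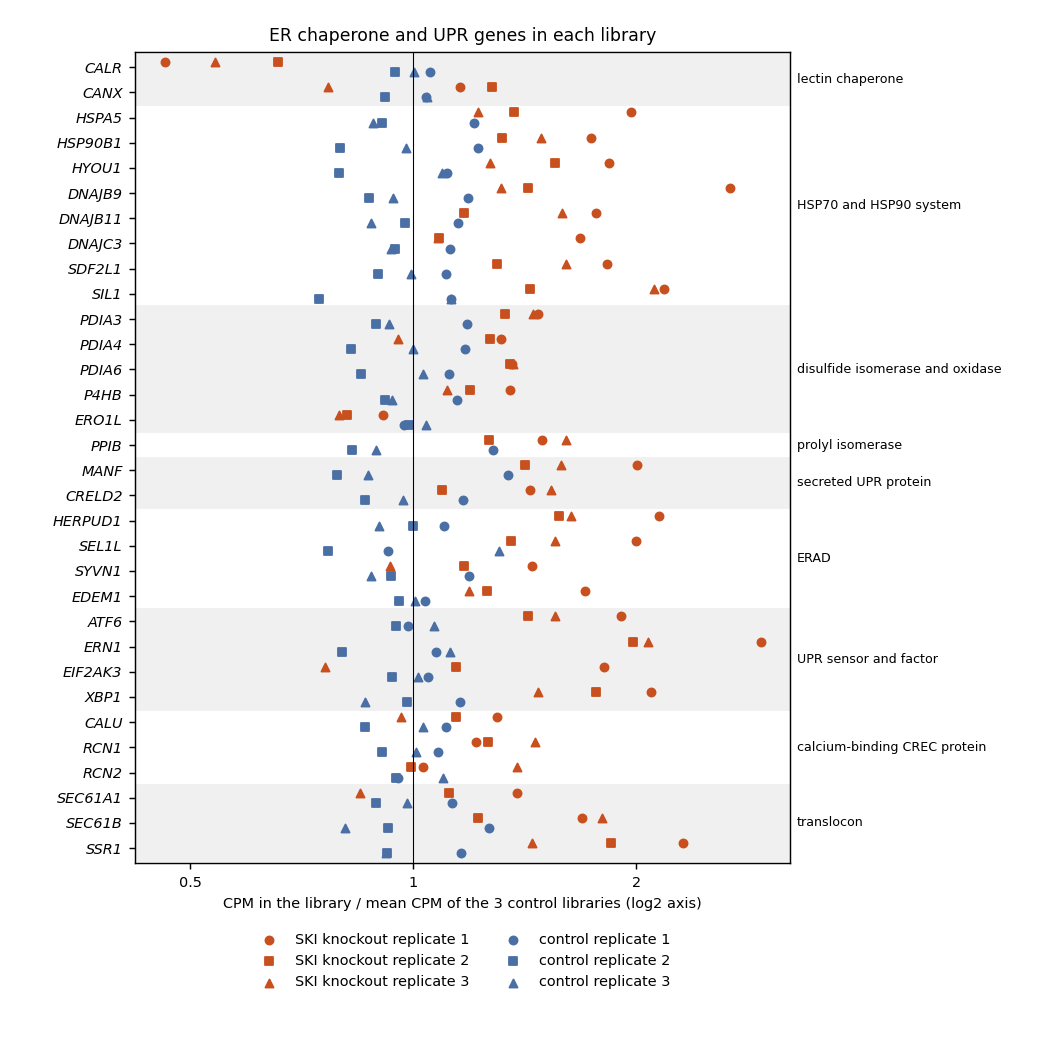
CPM of each member in each library, divided by the mean of the 3 control libraries, on a log2 axis, with knockout libraries in orange above control libraries in blue and a marker shape for each replicate. For 18 members all orange points lie to the right of all blue points, whereas for CALR and ERO1L they lie to the left.

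The number that passed depended on single libraries and on the tool. It was 16 higher members by DESeq2, with 8.03% of all genes higher, and 17 by edgeR without a filter on low counts, with 5.43% higher. Leaving out control replicate 2 or control replicate 3 left only 2 members higher, with 2.98% and 2.65% of all genes higher in those fits. Leaving out knockout replicate 1 left 4 (3.52% of all genes). Leaving out knockout replicate 2 gave 14 (8.36%) and leaving out knockout replicate 3 gave 15 (7.16%). The direction was steadier, since 27 of the 30 members above 0 stayed above 0 in all 16 alternatives, the exceptions being CANX, EIF2AK3 and SEC61A1. These alternatives reuse the same libraries, and the share of all genes that kept their direction was not computed. The libraries also differed within their groups. Against the mean of the controls, the median member stood at 0.78, 0.36 and 0.50 on the log2 scale in knockout replicates 1, 2 and 3, and at 0.18, -0.13 and -0.01 in control replicates 1, 2 and 3. Knockout replicate 1 held the highest value of the 6 libraries for 23 members, against 17.6% of all genes. Within the control, replicate 1 was the highest library for 25 members and replicate 2 the lowest for 23. The shares of all genes with these ranks within the control were not computed. Over all genes tested, the median against the mean of the controls was 0.013, -0.011 and 0.007 in control replicates 1, 2 and 3.

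The promoters of 10 members carry an exact ER stress element, the sequence through which ATF6 and XBP1 are known to act together with the CCAAT-binding factor NF-Y. RefSeq promoter windows (GRCh38.p14, 250 bases before to 50 after each annotated start) were found for 31 members, while PDIA3 had none. They were searched on both strands for the ER stress element ERSE, which is CCAAT and CCACG with any 9 bases between them, for ERSE-II, which is ATTGG and CCACG with any 1 base between them, and for the UPR element core TGACGTGG. ERSE was found in 7 members, against 0.0769% of all 35116 windows and 25 of 27305 genes. ERSE-II was found in 3 members, against 0.0541% of windows. The UPR core was found in HYOU1, where it overlaps the more distant ERSE-II, against 0.729% of windows. Both the elements and the members were picked as parts of the UPR, so the higher shares among the members describe this set and are no test. A match is a description of these letters and does not show that a factor was bound. The ERSE sites are shown because they are what these members share, on the strand of the gene, with the fixed letters of the motif in capitals and, where a gene has 2 sites, the more distant one first. Reverse matches read CGTGG before ATTGG.
HSPA5: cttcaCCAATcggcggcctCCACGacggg
XBP1: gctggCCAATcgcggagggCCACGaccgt
PDIA6: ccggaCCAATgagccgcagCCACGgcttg
CANX: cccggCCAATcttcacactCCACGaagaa
HSP90B1 distant: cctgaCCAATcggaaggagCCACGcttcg
HSP90B1 near: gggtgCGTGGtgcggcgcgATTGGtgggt
CRELD2: cctctCGTGGcgaactcggATTGGgccat
CALR: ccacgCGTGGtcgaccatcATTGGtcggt

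The ERSE-II sites are shorter, with the 2 half-sites 1 base apart.
HERPUD1: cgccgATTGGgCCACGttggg
SDF2L1: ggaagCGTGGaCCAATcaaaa
HYOU1 distant: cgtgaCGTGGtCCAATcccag
HYOU1 near: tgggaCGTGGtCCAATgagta

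The element lies at different distances from the start site listed first for each gene. In XBP1 it spans bases -52 to -34 and in HSPA5 bases -66 to -48, while in CALR it spans bases -225 to -207 and is reversed. From another annotated start of CANX the same element spans bases -9 to 10. Among the 10 members with an ERSE or ERSE-II, 3 rose (HERPUD1, XBP1 and SDF2L1), CALR fell and the other 6 missed the threshold, and their median log2 fold change was 0.60. Among the 21 searched members without one, 5 rose and none fell, with a median of 0.47. The groups did not overlap, with the knockout higher, for 7 of the 10 and for 10 of the 21, against 16.0% of all genes. The strongest riser, ERN1, had no match in its window. Outside the members, 34 genes held an ERSE or ERSE-II and 17 of them were tested, with 1 higher, 2 lower and a median log2 fold change of 0.12. For the calls in this paragraph, 6.19% of all genes tested were higher and 5.63% lower.

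**Figure D2:**
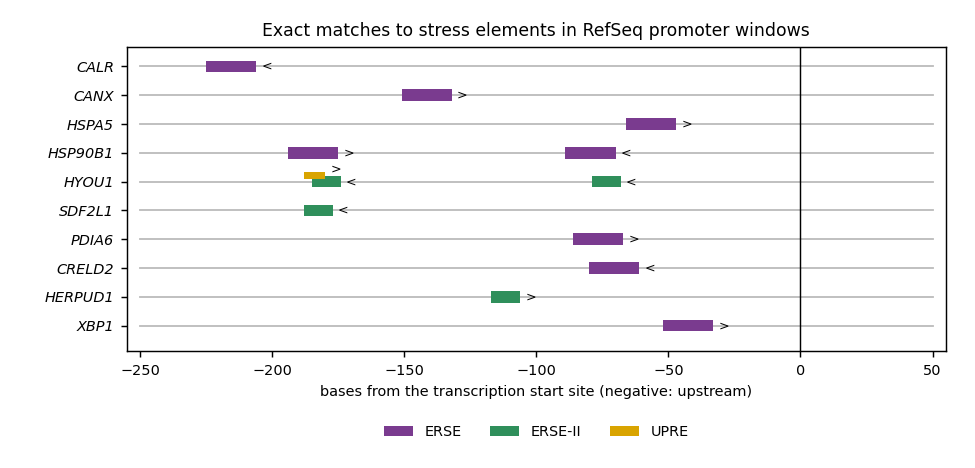
Position of exact ERSE, ERSE-II and UPR element matches from 250 bases before to 50 bases after the RefSeq start site of each member that has one, with arrowheads giving the direction of the match. Distances are from the first-listed start of each gene, from which all sites lie upstream, the nearest in XBP1 and the most distant in CALR.

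Of the 4 sensors and factors 3 rose, with ERN1 the largest change among the members, while EIF2AK3 did not pass. In the same edgeR test 6.19% of all genes were higher. ERN1 encodes IRE1, the kinase and RNase that splices XBP1 mRNA. It was at 72.4, 48.6 and 51.1 CPM in the knockout libraries, against 26.4, 19.7 and 27.6 CPM in the control libraries. Every knockout library was above every control library, a 2.33-fold difference (log2 1.22, SE 0.20, edgeR adjusted p = 0.00309). ERN1 was the 1 member called in all 16 alternatives, with log2 fold changes from 1.03 to 1.35. ATF6, the membrane-bound factor released by cleavage in the Golgi, was at 155, 116 and 126 CPM in the knockout libraries, against 80.0, 77.2 and 86.8 CPM in the control libraries. The groups did not overlap, and the difference was 1.63-fold (log2 0.70, SE 0.16, adjusted p = 0.0135). Its adjusted p was 0.0583, 0.0787 and 0.0559 without control replicates 1, 2 and 3.

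XBP1, the factor whose spliced form drives chaperone and ERAD genes, stood at 718, 605 and 506 CPM in the knockout libraries, against 397, 337 and 296 CPM in the control libraries. The groups were well apart, a 1.78-fold difference (log2 0.83, SE 0.19, adjusted p = 0.0147). Counts per gene hold no information on the splicing of XBP1 mRNA. The call ended without knockout replicate 1 (adjusted p = 0.0510), control replicate 2 (0.0738) or control replicate 3 (0.0939). EIF2AK3, which encodes PERK, the kinase of the initiation factor eIF2-alpha, was at 36.6, 23.1 and 15.4 CPM in the knockout libraries, against 21.2, 19.0 and 20.6 CPM in the control libraries. Its knockout libraries lay on both sides of the controls, at a log2 difference of 0.31 (SE 0.26, adjusted p = 0.485) that became -0.061 without knockout replicate 1. Whether the ERN1 difference is larger than that of EIF2AK3 was not tested. The 250 bases upstream of XBP1 are printed as the promoter of the factor itself (chr22:28800570-28800819, minus strand, GRCh38.p14), with the ERSE letters in capitals.
XBP1: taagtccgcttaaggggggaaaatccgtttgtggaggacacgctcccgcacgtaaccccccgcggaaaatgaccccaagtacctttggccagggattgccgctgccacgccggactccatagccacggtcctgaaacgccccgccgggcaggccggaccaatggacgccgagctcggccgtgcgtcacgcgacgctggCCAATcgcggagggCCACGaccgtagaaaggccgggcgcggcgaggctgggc

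In the HSP70 and HSP90 system of the ER 2 of 8 members rose, against 6.19% of all genes. The other 6 had positive log2 fold changes that did not pass, with a median of 0.62 over the 8. HSPA5 encodes BiP, the ER HSP70 and the best known UPR target. It was at 1150, 800 and 716 CPM in the knockout libraries, against 708, 531 and 517 CPM in the control libraries. The lowest knockout value lay just above the highest control value, and the 1.52-fold difference did not pass (log2 0.60, SE 0.22, adjusted p = 0.0953). HSP90B1, which encodes GRP94, the HSP90 of the ER, was at 1504, 1141 and 1289 CPM in the knockout libraries, against 1060, 689 and 848 CPM in the control libraries. It did not pass either (log2 0.60, SE 0.20, adjusted p = 0.0807), though the groups did not overlap. HYOU1, a large HSP70 that serves as a nucleotide exchange factor for BiP, had a log2 difference of 0.64 (SE 0.20, adjusted p = 0.0628). Of these, HSPA5, HSP90B1 and HYOU1 passed in DESeq2 (adjusted p = 0.0421, 0.0257 and 0.0172).

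The upstream sequence of HSPA5 is printed as the reference promoter of this family (chr9:125241344-125241593, minus strand, GRCh38.p14), with the ERSE letters in capitals.
HSPA5: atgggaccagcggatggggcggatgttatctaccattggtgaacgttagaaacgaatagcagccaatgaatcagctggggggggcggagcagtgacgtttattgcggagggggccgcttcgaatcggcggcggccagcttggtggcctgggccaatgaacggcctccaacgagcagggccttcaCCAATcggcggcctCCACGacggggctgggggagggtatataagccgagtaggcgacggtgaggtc

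Of the partners of BiP, SIL1 and SDF2L1 rose. SIL1, its other nucleotide exchange factor, was at 20.9, 13.8 and 20.3 CPM in the knockout libraries, against 10.8, 7.16 and 10.8 CPM in the control libraries. The groups did not overlap, a 1.91-fold difference (log2 0.93, SE 0.23, adjusted p = 0.0203). The call ended without knockout replicate 1 (adjusted p = 0.0851), control replicate 2 (0.0894) or control replicate 3 (0.0626). Exons of SIL1 overlap the far more abundant MATR3 on the opposite strand. MATR3 stood at 267 ± 87.8 CPM in the knockout and 345 ± 46.1 CPM in the control (SD, n = 3 each) and did not pass (log2 -0.37, edgeR adjusted p = 0.315). The sources used here do not give the strand setting of the counting.

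SDF2L1, a component of BiP complexes, was at 37.5, 26.7 and 33.0 CPM in the knockout libraries, against 22.8, 18.4 and 20.4 CPM in the control libraries. Every knockout library was higher, at a log2 difference of 0.66 (SE 0.18, adjusted p = 0.0320). Of its 6 fits with 1 library left out, 4 missed the threshold, namely those without control replicate 1 (adjusted p = 0.0601), knockout replicate 1 (0.113), control replicate 3 (0.119) and control replicate 2 (0.140). Among the J-domain co-chaperones that bring clients to BiP, DNAJB9 (log2 0.85, SE 0.27, adjusted p = 0.0648), DNAJB11 (0.59, 0.18, 0.0553) and DNAJC3 (0.36, 0.19, 0.256) did not pass in edgeR, while DESeq2 called DNAJB9 (adjusted p = 0.0166) and DNAJB11 (0.0294). DNAJB9 was a low-abundance transcript, at 19.6, 10.5 and 9.60 CPM in the knockout libraries, against 8.68, 6.38 and 6.87 CPM in the control libraries, so that knockout replicate 1 stood far above the other 5 libraries.

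Of the 2 lectin chaperones CALR fell and CANX did not pass, where 5.63% of all genes were lower. CALR encodes calreticulin, the soluble lectin chaperone and calcium store of the ER lumen, and was the most abundant member per gene length in both groups. It was at 985, 1399 and 1152 CPM in the knockout libraries, against 2247, 2012 and 2134 CPM in the control libraries. No knockout library reached the lowest control library, a 1.81-fold lower level (log2 -0.85, SE 0.19, adjusted p = 0.0147). CANX, its membrane-bound relative calnexin, was at 1162, 1283 and 770 CPM in the knockout libraries, against 1044, 921 and 1048 CPM in the control libraries. The knockout libraries of CANX spread across the controls (log2 0.09, SE 0.21, adjusted p = 0.815).

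CALR lies on chromosome 19, whose genes were lower as a whole in the knockout. Over 687 well-expressed genes of that chromosome the median log2 fold change was -0.48, with 85.7% of them lower. Centred on that median, CALR was at -0.38 (adjusted p = 0.255), and centred on its 50 nearest genes at -0.46 (adjusted p = 0.165). The call also ended without knockout replicate 1 (adjusted p = 0.0507) and without control replicates 1, 2 and 3 (0.0545, 0.0521 and 0.0668). The upstream sequence of CALR is printed for comparison with HSPA5, as an ERSE promoter of a member that fell (chr19:12938359-12938608, plus strand, GRCh38.p14).
CALR: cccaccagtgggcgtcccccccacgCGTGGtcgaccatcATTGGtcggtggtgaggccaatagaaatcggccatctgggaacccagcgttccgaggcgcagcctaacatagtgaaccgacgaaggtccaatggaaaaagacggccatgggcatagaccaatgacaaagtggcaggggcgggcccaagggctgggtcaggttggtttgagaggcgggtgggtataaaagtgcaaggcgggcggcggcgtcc

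Chromosome medians touched other members too. On chromosome 6, with a median of 0.43, lies SSR1, and on chromosome 22, with a median of 0.22, lie XBP1, SDF2L1 and CRELD2. With each gene centred on its chromosome, SSR1 was at 0.48 (adjusted p = 0.150), XBP1 at 0.60 (0.0686) and SDF2L1 at 0.43 (0.154). HSPA5 and SEC61B lie on chromosome 9, with a median of -0.23, and passed after chromosome centring at 0.83 (adjusted p = 0.0370) and 0.88 (0.0215). SEL1L, on chromosome 14 with a median of -0.19, was at 0.90 (adjusted p = 0.0240). ERN1, ATF6, SIL1 and HERPUD1 kept their calls, and MANF narrowly missed at 0.73 (adjusted p = 0.0566). After chromosome centring 7 members were higher and 0 lower, against 8 and 1 before it, while 5.03% of all genes were higher and 3.19% lower. With each gene centred on its nearest genes instead, SEC61B (0.65, edgeR adjusted p = 0.0723) and SEL1L (0.62, 0.0984) did not pass. In that fit HSPA5 (0.90, adjusted p = 0.0269) and MANF (0.82, 0.0369) did.

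**Figure D3:**
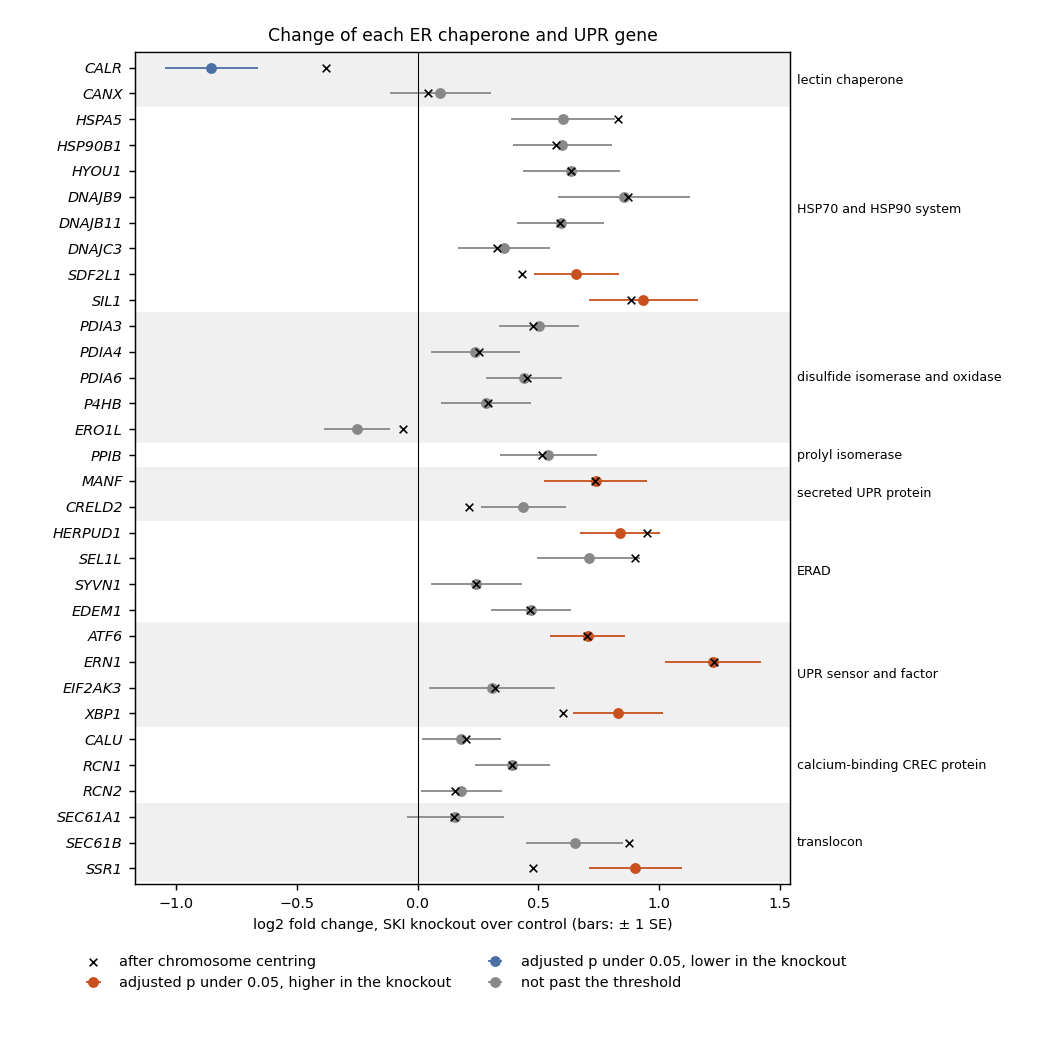
Log2 fold change of each member, knockout over control, with bars of ± 1 SE, orange where higher and blue where lower at an adjusted p under 0.05, and a cross for the value after chromosome centring. Of all members CALR lies farthest to the left and ERN1 farthest to the right, and the crosses of CALR, SSR1 and HSPA5 are shifted from their points.

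None of the 5 disulfide isomerases and oxidases passed in edgeR, with 2 higher at an unadjusted p under 0.05 and 1 in DESeq2 and 0 in limma-voom past the threshold. Over all genes tested, 14.1% were higher at an unadjusted edgeR p under 0.05 and 8.03% were higher in DESeq2. PDIA3, the thiol isomerase ERp57 that works with the lectin chaperones, was at 404, 365 and 398 CPM in the knockout libraries, against 325, 244 and 254 CPM in the control libraries. The groups of PDIA3 did not overlap (log2 0.50, SE 0.16, adjusted p = 0.0693). PDIA6, another isomerase of this family, was nearly the same in its knockout libraries, at 322 ± 1.60 CPM, against 237 ± 32.2 CPM in the control (SD, n = 3 each, log2 0.44, edgeR adjusted p = 0.0904). P4HB, which encodes the founding protein disulfide isomerase, averaged 1972 ± 198 CPM in the knockout and 1620 ± 207 CPM in the control (SD, n = 3 each, log2 0.28, edgeR adjusted p = 0.362). PDIA4 stood at a log2 difference of 0.24 (adjusted p = 0.442).

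ERO1L encodes the oxidase that recharges these isomerases, and with CALR it was the other member with a negative log2 fold change. It was at 66.5, 59.4 and 58.0 CPM in the knockout libraries, against 70.9, 72.1 and 75.8 CPM in the control libraries. The groups did not overlap, yet the difference was small and did not pass (log2 -0.25, SE 0.14, adjusted p = 0.272), and it became 0.10 when ERO1L was centred on its 50 nearest genes. PPIB, the ER cyclophilin B, a prolyl isomerase, had a log2 difference of 0.54 (SE 0.20, adjusted p = 0.102), with overlapping groups.

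Of the ERAD genes HERPUD1 rose, and SEL1L was at the threshold, where 6.19% of all genes were higher. HERPUD1, a membrane protein that organises the ERAD ligase, was at 130, 95.1 and 98.8 CPM in the knockout libraries, against 66.5, 60.5 and 54.3 CPM in the control libraries. The groups were clearly apart, a 1.79-fold difference (log2 0.84, SE 0.17, adjusted p = 0.00807). It was called in 15 of 16 alternatives, the exception being the fit without control replicate 3 (0.76, adjusted p = 0.0596). The upstream sequence of HERPUD1 carries an ERSE-II, in capitals (chr16:56931892-56932141, plus strand, GRCh38.p14).
HERPUD1: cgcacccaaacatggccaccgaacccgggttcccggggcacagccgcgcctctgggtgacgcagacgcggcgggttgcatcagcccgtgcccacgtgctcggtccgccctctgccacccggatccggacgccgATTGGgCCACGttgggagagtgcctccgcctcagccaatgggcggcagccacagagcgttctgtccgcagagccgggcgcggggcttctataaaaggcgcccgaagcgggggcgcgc

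SEL1L, the adaptor of the ligase encoded by SYVN1, was at 159, 108 and 124 CPM in the knockout libraries, against 73.6, 61.1 and 104 CPM in the control libraries. Control replicate 3 came close to the lowest knockout value, and the gene just missed (log2 0.71, SE 0.21, adjusted p = 0.0515). It passed in 10 of 16 alternatives. SYVN1, which encodes the ligase HRD1, had a log2 difference of 0.24 (SE 0.19, adjusted p = 0.448), and its exons overlap those of FAU on the same strand in GENCODE release 29. EDEM1, a lectin-like protein that hands misfolded glycoproteins to ERAD, had 0.47 (SE 0.17, adjusted p = 0.0898), with groups that did not overlap.

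Of the secreted UPR proteins MANF rose, where 6.19% of all genes were higher. MANF, a trophic factor kept in the ER and released under stress, was at 136, 96.2 and 108 CPM in the knockout libraries, against 91.2, 53.6 and 59.1 CPM in the control libraries. The lowest knockout library lay just above control replicate 1 (log2 0.74, SE 0.21, adjusted p = 0.0445). The adjusted p was 0.153 without knockout replicate 1, 0.189 without control replicate 2 and 0.191 without control replicate 3. CRELD2, which is commonly induced with MANF, had a log2 difference of 0.44 (SE 0.18, adjusted p = 0.135), with overlapping groups.

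Of the 3 translocon members SSR1 rose, where 6.19% of all genes were higher. SSR1, the alpha subunit of the translocon-associated protein complex, was at 343, 274 and 215 CPM in the knockout libraries, against 172, 137 and 136 CPM in the control libraries. The groups did not overlap, a 1.87-fold difference (log2 0.90, SE 0.19, adjusted p = 0.0112). It missed the threshold without control replicate 2 (adjusted p = 0.0646) or control replicate 3 (0.0747). SEC61B, the beta subunit of the channel, was at 125, 90.8 and 134 CPM in the knockout libraries, against 94.1, 68.6 and 60.0 CPM in the control libraries (log2 0.65, SE 0.20, adjusted p = 0.0581). SEC61A1, the pore subunit, had a log2 difference of 0.16 (SE 0.20, adjusted p = 0.659), and it was -0.013 without knockout replicate 1. The calcium-binding CREC proteins CALU (0.18), RCN1 (0.39) and RCN2 (0.18) did not pass, with adjusted p-values of 0.515, 0.128 and 0.531. A processed copy of RCN1, RCN1P2, held 5.62% as many counts as RCN1, whereas the copies of the other members found by symbol held at most 0.192%.

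Levels were compared between members per length. In RPKM, the CPM divided by the gene length in kilobases, CALR was highest at 434 ± 76.7 in the knockout and 785 ± 43.3 in the control (SD, n = 3 each). P4HB came next, at 372 ± 37.3 RPKM in the knockout and 306 ± 39.1 RPKM in the control, and in the knockout its SD range overlapped that of CALR. PPIB followed at 325 ± 39.1 RPKM in the knockout and 223 ± 55.2 RPKM in the control, and HSP90B1 at 280 ± 39.0 RPKM in the knockout and 185 ± 39.7 RPKM in the control. HSPA5 stood at 227 ± 58.9 RPKM in the knockout and 150 ± 27.3 RPKM in the control, where CANX lay above it, and CANX at 172 ± 43.0 RPKM in the knockout and 161 ± 11.5 RPKM in the control. From P4HB down to HSPA5 the SD range of each gene in its group's order overlaps that of the next. XBP1 was the most abundant of the sensors and factors, at 201 ± 35.1 RPKM in the knockout and 113 ± 16.7 RPKM in the control. The kinase sensors were among the lowest, with ERN1 at 5.28 ± 1.20 RPKM in the knockout and 2.26 ± 0.391 RPKM in the control, where it ranked last of the 32, and EIF2AK3 at 4.61 ± 1.97 RPKM in the knockout and 3.72 ± 0.212 RPKM in the control. Lengths are those deposited with the counts, which cover every exon of a gene name and so understate genes with long rare exons. Together the members held 1.46%, 1.19% and 1.004% of all counts in the knockout libraries, against 1.10%, 0.912% and 0.992% in the control libraries. Knockout replicate 3 lay within the control range, so the groups overlap in this share.

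**Figure D4:**
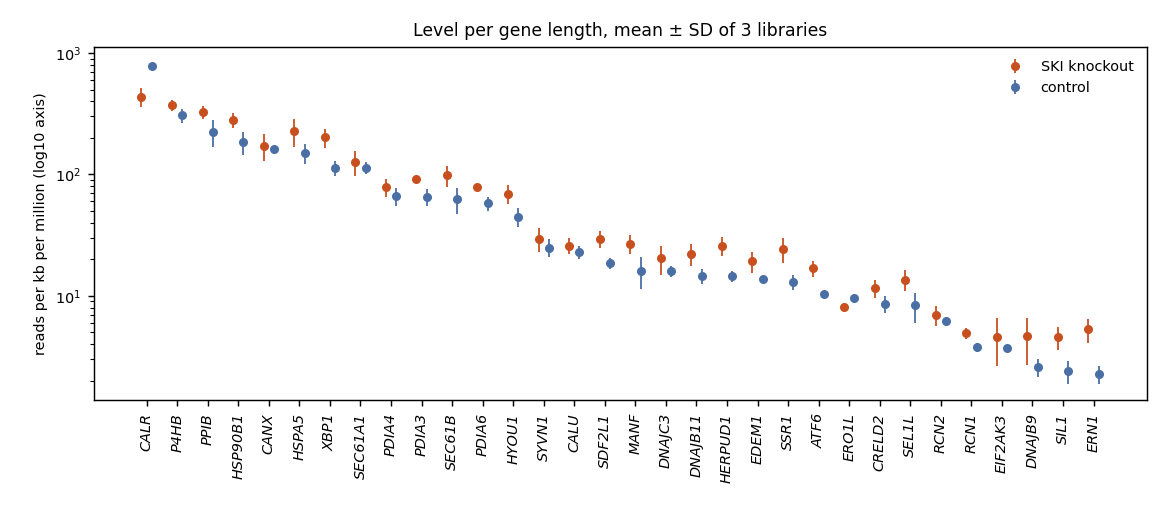
Mean level of each member in RPKM on a log10 axis, with SD over 3 libraries, knockout in orange to the left of control in blue, ordered by the control level. CALR is the highest in both groups and ERN1 is the lowest in the control.

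Other genes of the pathway were read from lists that also were chosen with results of these data known. Of 13 genes of the PERK and ATF4 arm 5 rose in edgeR, where 6.19% of all genes were higher, and the other 8 did not pass. DESeq2 called 6 higher (8.03% of all genes), and limma-voom and chromosome centring each 4. ATF3, TRIB3 and CEBPB lost their calls in 1, 3 and 5 of the 6 fits with 1 library left out. CEBPB also lost its call in limma-voom and after chromosome centring. The list's median log2 fold change was 0.40. DDIT3, the stress factor CHOP, was at 267, 176 and 407 CPM in the knockout libraries, against 136, 99.8 and 101 CPM in the control libraries (log2 1.34, SE 0.26, adjusted p = 0.00809). PPP1R15A, the phosphatase subunit GADD34 that reverses PERK signalling, rose more than 2-fold (log2 1.31, adjusted p = 0.00786), and both genes missed the threshold without control replicate 3 (adjusted p = 0.0596 and 0.0581). The next largest share was among other ER folding enzymes and co-chaperones, of which 31 of 32 were tested, 9 rose and 2 fell, with a median of 0.30. Among them CLGN, a calnexin relative known from testis, was at 102, 101 and 119 CPM in the knockout libraries, against 63.2, 38.8 and 52.8 CPM in the control libraries (log2 1.05, SE 0.19, adjusted p = 0.00460), a call that held without any single library.

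Of 23 genes of glycoprotein quality control and ERAD 4 rose, among them EDEM2 at a log2 fold change of 0.87 (adjusted p = 0.00846, and 0.0525 without control replicate 3), and the median was 0.11. After chromosome centring 1 of the 23 was higher, and UBE2J1, on chromosome 6, UFD1L, on chromosome 22, and VIMP lost their calls there (0.45, 0.36 and 0.74) and in 3, 5 and 3 of the 6 fits with 1 library left out. Of 18 genes of translocation and signal peptidase 2 rose, SEC11A at 0.84 and SEC63 at 0.62, and all 18 had positive log2 fold changes with a median of 0.34. SEC11A missed the threshold without control replicates 2 or 3, and SEC63, on chromosome 6, without any 1 of the controls and after chromosome centring, at 0.19. None of 11 oligosaccharyltransferase genes passed in edgeR (3 higher at an unadjusted p under 0.05, 2 higher in DESeq2 and 0 in limma-voom), with a median of 0.27. Of 20 tested genes of KDEL receptors and COPII export TMED10 alone rose in edgeR (0.80, adjusted p = 0.0118, missed without control replicates 2 or 3), with a median of 0.25. In edgeR 6.19% of all genes were higher. Of this list 4 were higher and 2 lower at an unadjusted p under 0.05, while DESeq2 called 3 of 21 higher and limma-voom 1. Of 13 tested transcription factor genes of the UPR and their processing none rose in edgeR (2 at an unadjusted p under 0.05, 1 in DESeq2 and 0 in limma-voom), and TRAF2 fell (-0.57, adjusted p = 0.0261), a call lost in 5 of 6 fits with 1 library left out and at -0.34 after chromosome centring. None of 9 tested ER calcium genes passed in edgeR (1 higher at an unadjusted p under 0.05, 1 in DESeq2 and 0 in limma-voom), with a median of 0.05. For these counts, 14.1% of all genes tested were higher at an unadjusted edgeR p under 0.05, and 8.03% were higher in DESeq2.

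Chaperones outside the ER were read beside these lists. Of 23 cytosolic and mitochondrial chaperone genes none passed in edgeR, DESeq2 or limma-voom. At an unadjusted edgeR p under 0.05, 1 was higher, against 14.1% of all genes tested, and 3 were lower. Of the 23, 8 had positive log2 fold changes and the median was -0.11. Granule proteins that are folded in the ER were lower. Of 5 azurophil granule genes 4 were tested and all 4 fell in edgeR, against 3 in DESeq2 and 3 after chromosome centring. AZU1 and PRTN3 were called in every alternative, while CTSG (-0.89, adjusted p = 0.0454) was at -0.70 after chromosome centring and lost its call there, with neighbour centring and in 3 of 6 fits with 1 library left out. MPO, the myeloperoxidase that depends on calreticulin and calnexin for folding, was at 3472, 8538 and 2562 CPM in the knockout libraries, against 12644, 13987 and 11626 CPM in the control libraries (log2 -1.39, SE 0.38, adjusted p = 0.0365). The log2 fold change of MPO did not pass in DESeq2 (adjusted p = 0.0744) or, at 0.0548, after centring on the 50 nearest genes, and it was also above 0.05 in the fits without knockout replicate 1 or any 1 of the control libraries. Knockout replicate 2 held the highest knockout value of both MPO and CALR. The lowest knockout value was in replicate 3 for MPO and in replicate 1 for CALR. Among the controls, replicate 2 held the highest value of MPO and the lowest of CALR. Whether the levels of MPO and CALR are linked was not tested.

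**Figure D5:**
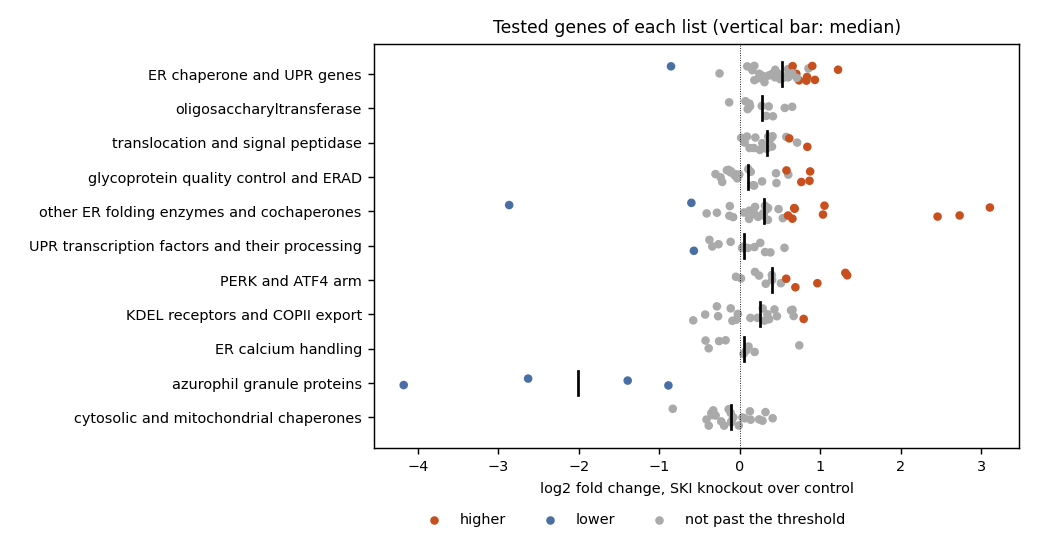
Log2 fold change of each tested gene in the members and in the other lists, knockout over control, orange where higher, blue where lower and grey where the threshold was not passed, with a vertical bar at each median. The median is 0.52 for the members, -0.11 for cytosolic and mitochondrial chaperones and -2.01 for azurophil granule proteins.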

How the data were processed

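Per the labels' protocols, stranded mRNA libraries were sequenced from 3 SKI knockout and 3 control samples. The submitters' processing notes list TopHat2, featureCounts of Subread, DESeq, DESeq2 and bcl2fastq and the build hg19 (GRCh37), without versions, annotation or strand setting. Deposited by the authors were raw counts for each gene name with its length, and a table of log2 fold changes with adjusted p-values, of which the values of the members and the share of genes passing were used. Count columns were matched to samples by group and replicate number in the titles.

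Genes were kept by filterByExpr, scaled by TMM and tested with edgeR's quasi-likelihood F test (R 4.3.3, edgeR 4.0.16) with group as the only term. P-values were Benjamini-Hochberg adjusted over all tested genes, with a threshold of 0.05. Standard errors were derived from the F statistic. CPM use TMM-scaled totals. Alternatives used DESeq2 1.42.0 and limma 3.58.1. On data simulated from this comparison for 16340 genes, 78.9% of 2-fold and 100% of 4-fold changes were recovered. The smaller changes typical of the members were not simulated. Chromosomes were taken from RefSeq by symbol for 83.0% of tested genes, and exon overlaps from GENCODE release 29, in which 19 members share exon bases with an opposite-strand gene and 5 with a same-strand gene. A value of 3 counts, the limit that a count of 0 allows, was at most 0.0626 CPM.

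Members and lists were chosen with earlier results of these data known, so no list test was run. All 32 members could be named, and from each other list up to 6 genes past the threshold with the smallest p, together with MPO, SKI, SKIL and near-identical copies. Genes outside this rule, MATR3 and FAU, and markers named as a check, were chosen after their values or overlaps were seen.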

Additional observations from a re-analysis of the deposited data

How the results depend on the processing

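Counts of calls moved with the processing, and directions mostly did not. Members called higher numbered 8, and 17 with no filter, 16 in DESeq2, 14 with the length trend of each library removed, and 2 to 15 with 1 library left out. The 1 member called lower was not called after chromosome centring or neighbour centring (0 each), and 0 to 1 were called with 1 library left out. All genes called numbered 1932, and 1255 with neighbour centring and 740 to 2488 with 1 library left out. Genes of the other lists called numbered 28, and 18 with neighbour centring and 6 to 39 with 1 library left out. The log2 fold change of SKI was -0.69 with library totals (adjusted p = 0.0673) and -0.45 with neighbour centring (adjusted p = 0.168), both past the threshold no longer, and from -0.91 to -0.61 with 1 library left out. Neighbour centring and removal of the length trend (lowess span 0.3) were chosen after the data were examined. Of the 512 values of single members under alternatives 426 kept their side of the threshold, 32 lost the call, 50 gained it and 4 changed sign. With 1 library left out, the log2 fold change of CANX ran from -0.030 (without knockout replicate 2) to 0.30, the log2 fold change of EIF2AK3 from -0.061 (without knockout replicate 1) to 0.59 and the log2 fold change of SEC61A1 from -0.013 (without knockout replicate 1) to 0.34. With neighbour centring the log2 fold change of ERO1L was 0.10 and the log2 fold change of CD33, a promyelocytic marker, was 0.042. The cause was not tested. With the replicate number as a block 12 members were higher and 1 lower, and 2107 genes passed. Same-numbered libraries correlated in their deviations from the group means at -0.17, 0.42 and -0.09, so the numbers were not taken as pairs, and not every library correlated best with its own number. All members were detected in every library, the lowest value being 6.38 CPM for DNAJB9, against 0.0626 CPM for 3 counts, and whether depth limited the calls was not tested.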
